A study of Mus musculus with 6 samples.

Results

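Grb10, Phlda2, Impact, Cdkn1c and Igf2r are 5 imprinted genes that act on growth or translation, and their transcripts were followed here through 497 single haematopoietic stem and progenitor cells of the mouse. They were taken by name as rows of the deposited expression tables. All 5 had a row among the 13278 genes of the tables, and all 5 belonged to the 11961 genes whose counts could be recovered from the deposited scores. None of their scores was capped. In outline, Grb10 and Phlda2 were highest in the double-negative or HPC1 libraries and lowest in the HSC2/MPP4 library. Impact was highest in the HSC1 library, Cdkn1c had no count in the HSC2/MPP4 library, and Igf2r was sparse in all 6 libraries.

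An imprinted gene is transcribed mainly from the copy inherited from 1 parent. Grb10, Phlda2, Cdkn1c and Igf2r are expressed from the maternal copy in most tissues of the mouse and act as brakes on growth. Impact is expressed from the paternal copy. Grb10 is an adaptor that binds the activated insulin and IGF1 receptors and dampens their signal. Igf2r, the cation-independent mannose 6-phosphate receptor, takes up the growth factor IGF2 for breakdown and sorts lysosomal enzymes. Phlda2 is a small pleckstrin-homology domain protein known for limiting placental growth, and Cdkn1c encodes p57, an inhibitor of cyclin-dependent kinases that is known for holding haematopoietic stem cells out of the cell cycle. Impact binds GCN1 and so restrains the kinase GCN2, which slows translation when amino acids are short. Imprinted genes of this kind are known to be prominent in haematopoietic stem cells. Which parental copy gave the transcripts was not measured here.

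The study sorted blood-forming cells of C57BL/6 mice by surface protein and profiled each cell by a modified Smart-seq2 method, which copies the RNA of single cells in wells, with enrichment of transcript 3' ends. There was 1 library per group, and every library mixed several sorted populations whose cells could not be told apart. The double-negative library (76 cells) combined HSC1 and HPC1, both CD201-CD48-. In the HSC1 library (84 cells) the populations were CD201+CD48- HSC1 and CD48+ HSC1, and in the HPC1 library (82 cells) they were CD201+CD48- HPC1 and CD48+ HPC1. The MPP2-containing library (80 cells) held CD48+ HSC1 and CD48+ HPC1 beside MPP2 and CD201-CD48- HPC1. CD48+ HSC2 and MPP4 made up the HSC2/MPP4 library (89 cells), and the CD48-negative HSC2 library (86 cells) joined CD48-CD201+ HSC2 with CD48-CD201- HSC2. The mice were 8 to 10 weeks old for the first 4 libraries, whose molecule is given as polyA RNA, and 8 weeks old for both libraries with HSC2, whose molecule is given as total RNA. The label of the HSC1 and HPC1 libraries is spleen and that of the other 4 is bone marrow, while the title of the series names bone marrow alone, and which of the 2 sources holds for those libraries was not settled. Labelled tissue, gate, RNA type and library therefore cannot be told apart where they differ, and the sources used here do not say how many mice stand behind a library.

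The libraries differed in depth. Median counts per cell were lowest in the CD48-negative HSC2 (23540) and highest in the MPP2-containing library (145496). The gate genes followed the labels in part. Cd48 was at 1.62 counts per 1000000 counts (CPM) in the double-negative library and at 173 in the HSC2/MPP4 library, and Procr, which encodes CD201, ranged from 16.4 CPM in the MPP2-containing to 133 in the HSC1 library. Slamf1, the gene of the stem cell protein CD150, had no count in the CD48-negative HSC2 library. The 18 stem cell markers summed to 816 CPM in the HSC2/MPP4 and 1001 CPM in the MPP2-containing library, against 2107 to 2745 in the other 4. Of these 18, Hoxb5 and Nupr1 were at 0 in the HSC2/MPP4 library and Slamf1 and Nupr1 in the CD48-negative HSC2 library. Summed levels of 8 mature neutrophil genes differed from 309 CPM (HSC1) to 6584 (CD48-negative HSC2), and in the HPC1 library no cell had less than 420 CPM of them. The median cell held 56.1 CPM of them in HSC1, 66 in CD48-negative HSC2 and 1125 in HPC1. The part of these differences in the results on the 5 genes was not tested.

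A level is the pooled count of a library divided by its total count, in CPM, with exact 95% Poisson intervals. These intervals cover counting error only, and with 1 library per group there was no spread between replicates and no test. Fewer cells with a transcript and fewer transcripts per cell both lower a pooled level. Shares of cells were therefore taken as well, after each cell was thinned to 10000 counts, with exact Clopper-Pearson intervals. Cells with fewer than 10000 counts were left out of all thinned values. These were 20 of 86 cells in CD48-negative HSC2, 8 of 89 in HSC2/MPP4 and 0 to 4 in each other library.

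Grb10 and Phlda2 had their lowest level in the same library, HSC2/MPP4, so the sequence before their RefSeq transcription starts is shown. The RefSeq table (GRCm38.p6) held promoter windows of 3 of the 5 genes, Grb10, Phlda2 and Igf2r, with 2 starts for Grb10. Cdkn1c and Impact had no entry. The letters CG, which read the same on both strands and mark where cytosines can be methylated, are in capitals. Each line reads 5' to 3' on the minus strand and ends at or shortly before the RefSeq start. In the GENCODE annotation every stretch shown lies inside the span of its gene. None of them is therefore upstream of all annotated starts. The upstream Grb10 window is chr11:12037421-12037670, the downstream one is chr11:12027972-12028221, and the Phlda2 stretch is chr7:143502542-143502774, which leaves out 17 bases covered by an annotated 5' untranslated region.
Grb10, upstream start: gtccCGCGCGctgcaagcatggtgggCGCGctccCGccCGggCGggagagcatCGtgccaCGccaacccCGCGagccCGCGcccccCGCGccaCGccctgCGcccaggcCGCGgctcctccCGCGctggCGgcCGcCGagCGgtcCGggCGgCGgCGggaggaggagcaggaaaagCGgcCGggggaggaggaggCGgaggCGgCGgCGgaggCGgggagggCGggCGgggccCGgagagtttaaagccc
Grb10, downstream start: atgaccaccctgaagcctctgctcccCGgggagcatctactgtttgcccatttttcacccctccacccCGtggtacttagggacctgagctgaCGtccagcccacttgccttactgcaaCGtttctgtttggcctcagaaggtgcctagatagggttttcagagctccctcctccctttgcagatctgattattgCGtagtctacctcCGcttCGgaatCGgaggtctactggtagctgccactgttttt
Phlda2: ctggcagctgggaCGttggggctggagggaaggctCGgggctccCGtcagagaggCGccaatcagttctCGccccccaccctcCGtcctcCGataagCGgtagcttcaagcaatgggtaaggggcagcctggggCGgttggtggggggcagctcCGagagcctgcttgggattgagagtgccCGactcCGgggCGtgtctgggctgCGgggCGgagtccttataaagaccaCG

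At least 1 CG was held by 92.1% of the 32851 windows of 250 bases in the table, with a median of 6 per window. The 250 bases before the upstream Grb10 start held 40, a number reached by 1.31% of windows, and those before the downstream start held 8, reached by 43.0%. For Phlda2 the window held 21 (reached by 16.3%) and for Igf2r 27 (reached by 8.56%). GC content was 81.2% and 54.0% at the Grb10 starts, 68.8% at Phlda2 and 69.2% at Igf2r, against a median of 52.4%. Methylation was not measured, and these letters are a description of the reference sequence only.

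Grb10 (ENSMUSG00000020176.17, chromosome 11, 11930508 to 12038683 on the minus strand of GRCm38) is a protein-coding gene that no other annotated gene overlaps. Its level was 81.0 CPM (75.9 to 86.4) in the HPC1, 78.1 (72.7 to 83.8) in the double-negative and 60.1 (54.3 to 66.4) in the HSC1 library. CD48-negative HSC2 followed at 30.2 CPM (24.1 to 37.4) and MPP2-containing at 23.2 CPM (20.9 to 25.8), with HSC2/MPP4 lowest at 6.37 CPM (4.12 to 9.41). Counting intervals of the first 2 libraries in this order overlapped, as did those of the CD48-negative HSC2 and MPP2-containing libraries, and the other neighbours lay apart. Among thinned cells the share with Grb10 was 44.0% in the double-negative library (33 of 75 cells, interval 32.5 to 55.9%), 30% of HSC1, 29.6% of HPC1, 22.5% of MPP2-containing, 15.2% of CD48-negative HSC2 and 2.47% of HSC2/MPP4 cells (2 of 81, interval 0.3 to 8.64%). The HSC2/MPP4 level rested on 25 counts in 3 cells, of which 1 cell held 48.0%. Within the other libraries the highest cell held 12.7 to 26.2% of the Grb10 counts, and the 5 highest cells held 42.6 to 67.9%. Before thinning the shares were 69.7% in double-negative, 36.9% in HSC1, 59.8% in HPC1, 48.8% in MPP2-containing, 22.1% in CD48-negative HSC2 and 3.37% in HSC2/MPP4 cells. The share was lower in HPC1 than in double-negative cells at overlapping levels, with intervals that overlapped as well, and in HPC1 a cell with a count reached up to 745 CPM against 483 CPM in the double-negative library.

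Igf2r (ENSMUSG00000023830.14, chromosome 17, 12682406 to 12769664, minus strand) is overlapped at its 5' part by the antisense RNA gene Airn (12741311 to 12860136, plus strand), which is no row of the tables. The use of strand in counting is not given in the sources used here, so reads of the 2 genes cannot be told apart where they overlap. Igf2r was at 13.3 CPM in both the CD48-negative HSC2 (9.38 to 18.4) and the HSC2/MPP4 library (9.90 to 17.4). It was at 7.86 CPM (5.85 to 10.3) in HSC1, 7.76 (6.23 to 9.54) in HPC1, 6.59 (5.36 to 8.03) in MPP2-containing and 4.45 (3.23 to 5.98) in double-negative cells. Every neighbour in this order overlapped in its counting interval, while more distant libraries did not all overlap. The double-negative library lay apart from HPC1 and from both libraries with HSC2. The MPP2-containing library lay apart from both libraries with HSC2, and HPC1 from HSC2/MPP4. These levels rested on 37 to 99 counts per library. In the MPP2-containing library 71 of 99 counts came from 1 cell, and the level without that cell was 1.92 CPM. In the double-negative library all 44 counts lay in 4 cells. Thinned shares ran from 2.50% (MPP2-containing) to 9.88% (HSC2/MPP4, 8 of 81 cells), with intervals that all overlapped, and before thinning from 5.26% (double-negative) to 18.3% (HPC1).

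Phlda2 (ENSMUSG00000010760.5, chromosome 7, 143501545 to 143503150, minus strand) lies 40.5 kilobases from Cdkn1c in the same imprinted cluster, with no overlapping gene. Its level was 93.6 CPM (87.6 to 99.8) in the double-negative library, which stood apart from all others. It was 41.0 CPM (36.2 to 46.2) in HSC1, 31.3 (25.1 to 38.6) in CD48-negative HSC2, 27.2 (24.6 to 29.9) in MPP2-containing and 26.9 (24.0 to 30.1) in HPC1 cells, a run in which each neighbour overlapped the next. In the HSC2/MPP4 library it was 2.80 CPM (1.40 to 5.02), from 11 counts in 4 of 89 cells. The thinned shares were 38.7% of double-negative cells (29 of 75, interval 27.6 to 50.6%), 26.2% of MPP2-containing, 23.8% of HSC1, 16% of HPC1, 15.2% of CD48-negative HSC2 and 2.47% of HSC2/MPP4 cells (2 of 81). Before thinning they were 75% in double-negative, 55% in MPP2-containing, 41.7% in HSC1, 48.8% in HPC1, 16.3% in CD48-negative HSC2 and 4.49% in HSC2/MPP4 cells. At overlapping pooled levels, cells with a Phlda2 count had a median of 139 CPM in the CD48-negative HSC2 library and 17.9 CPM in the MPP2-containing library, where the cells were deeper and 1 count stands for a lower CPM.

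Cdkn1c (ENSMUSG00000037664.13, chromosome 7, 143458339 to 143461050, minus strand) contains an annotated antisense gene, Gm44732, within its span. Levels were 14.6 CPM (12.5 to 17.0) in HPC1, 12.8 (10.2 to 15.9) in HSC1, 10.5 (8.60 to 12.8) in double-negative, 9.36 (6.11 to 13.7) in CD48-negative HSC2 and 5.06 (3.99 to 6.33) in MPP2-containing cells. Each of these neighbours overlapped the next in its counting interval, while the MPP2-containing library lay apart from HPC1, HSC1 and double-negative. The HSC2/MPP4 library held no Cdkn1c count in 89 cells, which allows up to 0.765 CPM, and 0 of 81 thinned cells, which allows a share of up to 3.70%. Shares in the other libraries were 5 to 8.75% (4 to 7 cells) after thinning and 9.3 to 29.3% before it, and the 5 highest cells held 73.8 to 88.5% of the counts. Cdkn1c was thus carried by few cells wherever it was counted.

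Impact (ENSMUSG00000024423.6, chromosome 18, 12955852 to 12992950, plus strand) contains a gene annotated as miscellaneous RNA on the same strand, Gm26407, which is no row of the tables. Impact was at 157 CPM (148 to 167) in the HSC1 and 99.2 CPM (93.1 to 106) in the double-negative library. It was at 56.9 CPM (48.3 to 66.5) in CD48-negative HSC2, 41.1 (37.4 to 44.9) in HPC1, 39.8 (33.8 to 46.5) in HSC2/MPP4 and 35.7 (32.7 to 38.8) in MPP2-containing cells. By counting intervals the upper 3 libraries stood apart from each other and from the rest, and the lower 3 overlapped. In the CD48-negative HSC2 library 1 cell held 21.5% of the counts. Without that cell the level of the library was 46.0 CPM, inside the HSC2/MPP4 interval. Thinned shares were 43.8% in HSC1 (35 of 80, interval 32.7 to 55.3%), 37.3% in double-negative, 33.3% in HSC2/MPP4, 30.9% in HPC1, 23.8% in MPP2-containing and 19.7% in CD48-negative HSC2 cells. The HSC1 interval overlapped that of double-negative cells (26.4 to 49.3%). The CD48-negative HSC2 interval (10.9 to 31.3%) overlapped that of HPC1 cells (21.1 to 42.1%). For both libraries with HSC2 the share and the level disagreed in order, so no order of the pair was read. Before thinning the shares of the 6 libraries ran from 34.9% (CD48-negative HSC2) to 63.4% (HPC1). Single cells reached 2440 CPM in HSC1 and 1870 CPM in the double-negative library, and without its highest cell each library kept 136 and 82.0 CPM. Unlike the other 4 genes, whose HSC2/MPP4 shares lay at or under 9.88%, Impact was counted in 27 of 81 thinned cells of that library.

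**Figure D1:**
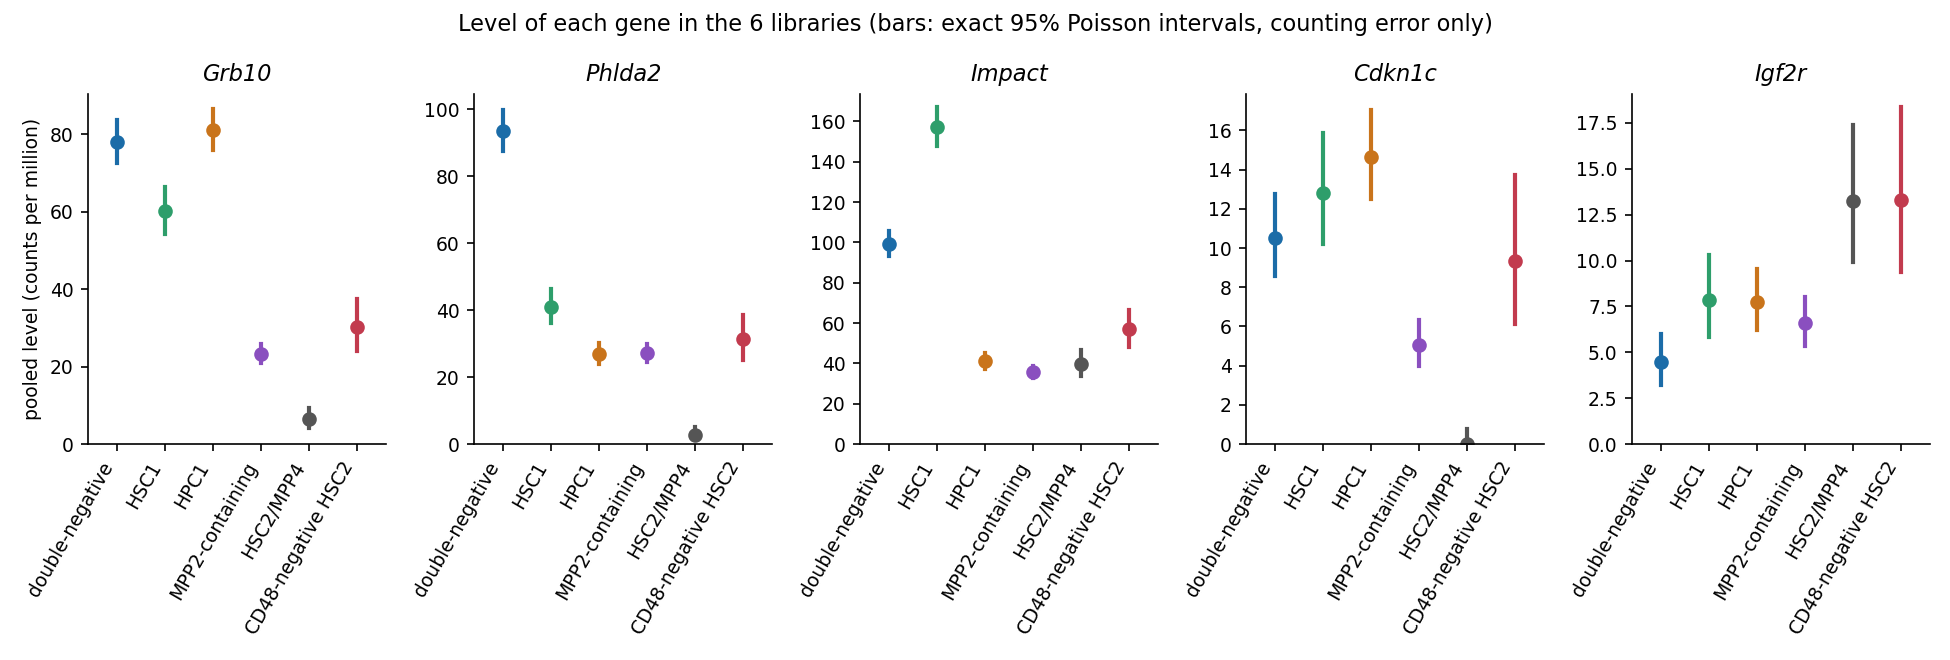
Pooled level in CPM (y axis, a separate scale per gene) of the 5 genes in the 6 libraries (x axis); points are levels and bars are exact 95% Poisson intervals, or for Cdkn1c in HSC2/MPP4 what a count of 0 allows. Grb10 (6.37 CPM) and Phlda2 (2.80 CPM) were lowest in HSC2/MPP4, and Impact peaked in HSC1 at 157 CPM. The bars of Igf2r overlapped between libraries next to each other in level, but not between all libraries.

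**Figure D2:**
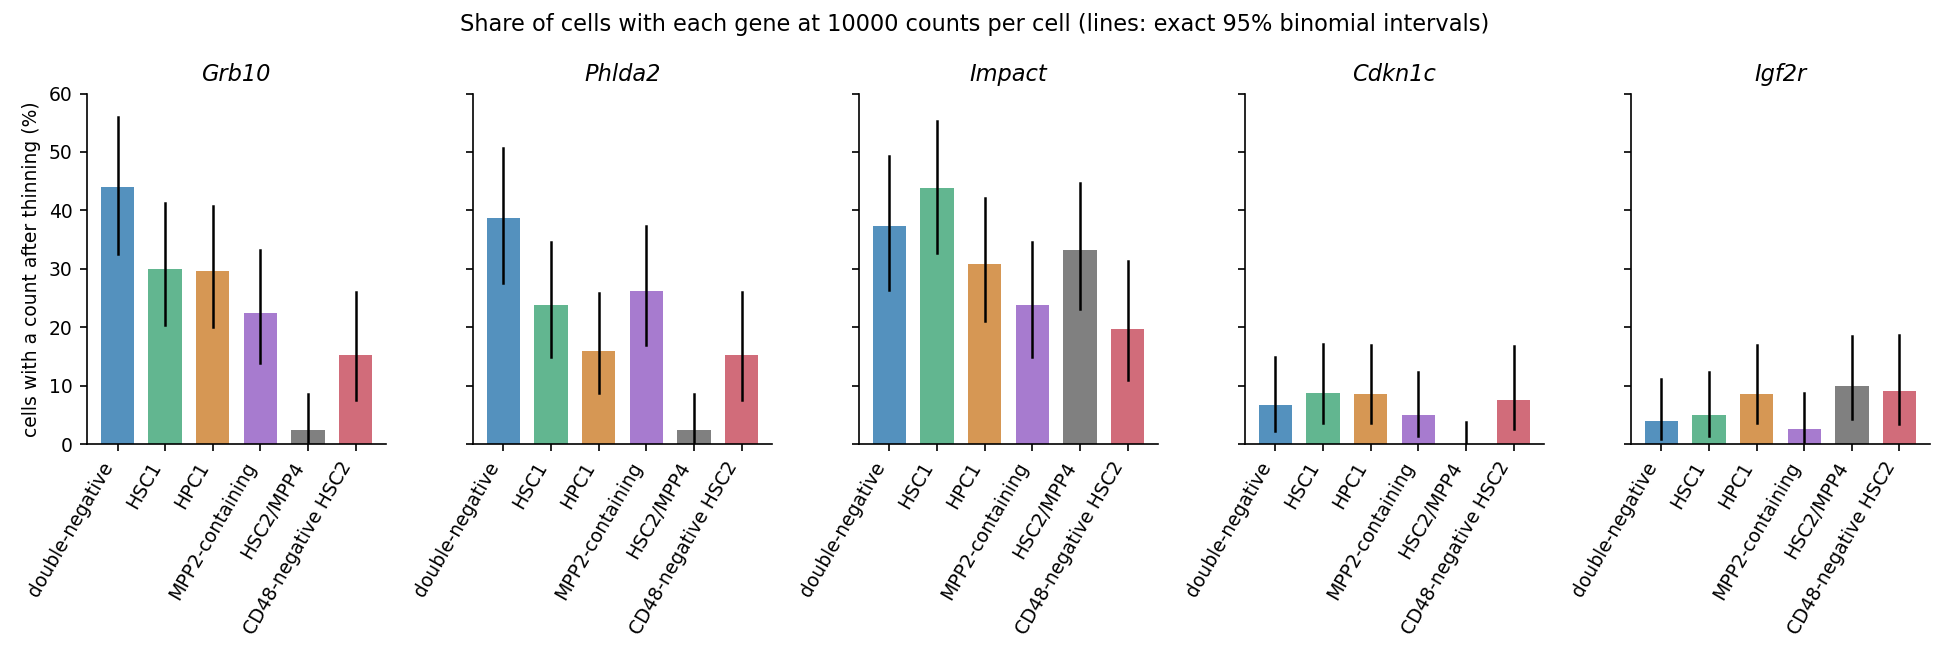
Share of cells with a count of each gene after thinning to 10000 counts per cell (y axis, percent) by library (x axis); lines are exact 95% binomial intervals, or for Cdkn1c in HSC2/MPP4 what a count of 0 allows. Grb10 and Phlda2 were in 2.47% of HSC2/MPP4 cells while Impact was in 33.3%.

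**Figure D3:**
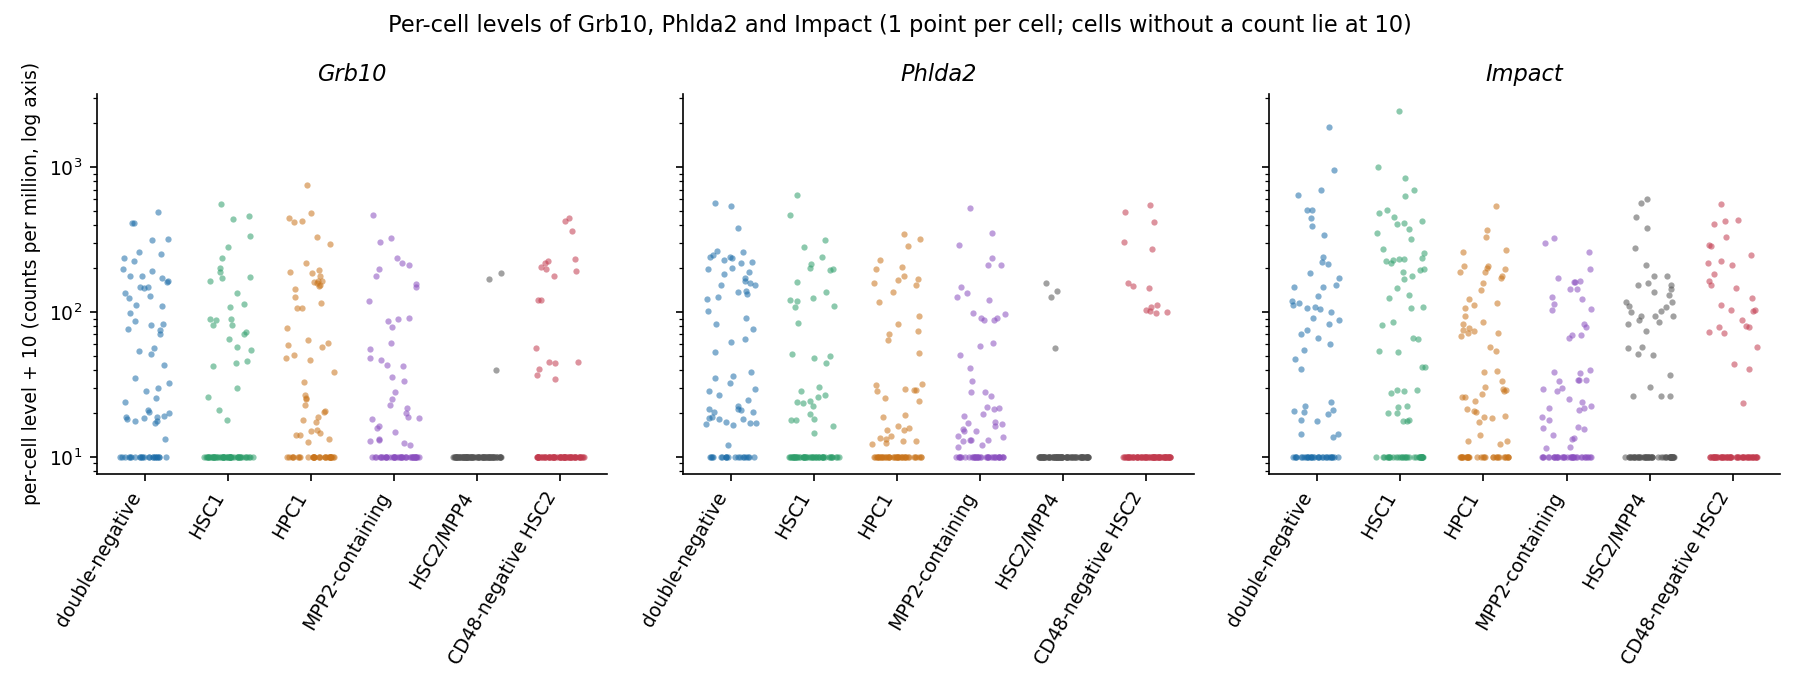
Per-cell level plus 10, in CPM on a log axis (y axis), of Grb10, Phlda2 and Impact, with 1 point per cell by library (x axis) and cells without a count at 10. In the HSC2/MPP4 library 3 cells had a Grb10 count and 4 a Phlda2 count, and the highest cell of Impact was in HSC1 at 2440 CPM.

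The 4 comparisons that the gates imply were described by the log2 ratio of pooled levels after adding 10 CPM to each, and a gene was counted as higher or lower at a ratio of at least 2-fold on that scale. The same ratio was computed for all 11961 recovered genes. Adding 10 CPM draws the ratio of a low gene towards 0, so the plain folds stand beside it.

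HPC1 cells were set against HSC1 cells with the same CD201 and CD48 gates in both libraries. Impact was lower in HPC1, at 41.1 against 157 CPM, a log2 ratio of -1.71 or 3.83-fold, and 10 of the 11961 genes, Impact included, had a ratio as low or lower. Over single cells the difference was smaller: the mean of log2 per-cell levels differed by -0.58, and the thinned share was 30.9% in HPC1 and 43.8% in HSC1, with overlapping intervals. Grb10 was at 81.0 against 60.1 CPM (log2 0.38) and Phlda2 at 26.9 against 41.0 CPM (log2 -0.47). Cdkn1c (log2 0.11) and Igf2r (log2 -0.01) had levels with overlapping counting intervals. Of the 5 genes, 1 was at least 2-fold lower, where 2.0% of all recovered genes were, and 0 were at least 2-fold higher, where 1.88% were. Megakaryocyte-platelet markers differed between these libraries as well, with a summed level of 4143 CPM in HPC1 and 579 in HSC1, all 11 counted in both, and 9 of 11 at least 2-fold higher in HPC1. The median cell differed less, at 1702 CPM of them in HPC1 and 551 in HSC1. Other lists differed too. In HPC1, 6 of 8 mature neutrophil genes were at least 2-fold higher, as were 5 of 8 erythroid genes, with 1 lower. Of 6 lymphoid progenitor genes, 5 were at least 2-fold lower. The part of these marker genes in the Impact difference was not tested.

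Cells of the MPP2-containing library were compared with double-negative cells, with which they share 1 population, CD201-CD48- HPC1. Phlda2 was 27.2 against 93.6 CPM (log2 -1.48, 3.44-fold lower), Grb10 23.2 against 78.1 CPM (log2 -1.41, 3.36-fold lower) and Impact 35.7 against 99.2 CPM (log2 -1.26, 2.78-fold lower). Among all recovered genes 25, 36 and 71 had ratios as low as these, each gene itself included. Thus 3 of the 5 genes were at least 2-fold lower, against 2.04% of recovered genes, and 0 were at least 2-fold higher, against 2.01%. Cdkn1c was at 5.06 against 10.5 CPM, 2.08-fold lower in plain levels with counting intervals apart, but at a log2 ratio of -0.45 with 10 CPM added. Igf2r was at 6.59 against 4.45 CPM (log2 0.20), which became -0.10 without the highest cell in each library and -0.40 without the deepest 10% of cells. With every cell given equal weight by its mean CPM, Grb10 (log2 -0.82) and Phlda2 (log2 -0.94) missed the 2-fold line and Impact (log2 -1.41) did not. Without the deepest 10% of cells the ratios of Grb10 and Phlda2 were -0.999 and -1.01, so part of the pooled difference lay in the deepest cells. Stem cell and cycling genes differed as well. As with these 3 genes, 9 of 18 stem cell markers were at least 2-fold lower in the MPP2-containing library. In the other direction, 10 of 20 G2/M genes were at least 2-fold higher, and the G2/M sum was 4324 against 2103 CPM. All 18 and all 20 had counts in both libraries. Their part in the differences was not tested.

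HSC2/MPP4 cells were compared with CD48-negative HSC2 cells, both of total RNA and 8-week-old mice. Phlda2 was at 2.80 against 31.3 CPM, 11.2-fold lower with a log2 ratio of -1.69, and Grb10 at 6.37 against 30.2 CPM, 4.74-fold lower with a log2 ratio of -1.30. The shares moved with the levels, from 15.2% to 2.47% of thinned cells for both genes, and the 2 intervals (7.51 to 26.1% and 0.3 to 8.64%) overlapped slightly. Cdkn1c had 26 counts in the CD48-negative HSC2 library (9.36 CPM, interval 6.11 to 13.7) and 0 in HSC2/MPP4. With HSC2/MPP4 set to the 0.765 CPM that a count of 0 allows, it was 12.2-fold lower there. The log2 ratio at that floor was -0.85 with 10 CPM added. The fold leaves out the counting error of the 26 counts. Impact, at 39.8 against 56.9 CPM (log2 -0.43), turned to a log2 ratio of 0.38 without the deepest 10% of cells, and Igf2r was at 13.3 CPM in both, with a log2 ratio between -0.51 and 0.50 from the counting intervals. In all, 2 of the 5 genes were at least 2-fold lower, where 3.31% of recovered genes were, and 0 were higher, where 1.87% were. Cdkn1c, at a log2 ratio of -0.95, lay just short of the line and passed it under 3 of 7 other settings, which gave -3.37 to -0.25. Beside them 12 of 18 stem cell markers were at least 2-fold lower and 11 of 19 S-phase genes at least 2-fold higher in HSC2/MPP4. Granulocyte-monocyte progenitor genes summed to 8892 CPM there, with all 9 counted, and to 578 CPM in CD48-negative HSC2, where Ms4a3 was at 0. The median cell differed less, at 915 CPM of this list in HSC2/MPP4 and 494 CPM in CD48-negative HSC2. The part of these marker genes in the 2 ratios was not tested.

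The last comparison set CD48-negative HSC2 cells against the double-negative library, whose cells are also CD48-negative by label. It uses libraries that the preceding comparisons use as well, so its ratios are not independent of theirs. RNA type, age range and table differ between the 2 libraries and cannot be told apart from the populations. Phlda2 was at 31.3 against 93.6 CPM (log2 -1.33, 2.99-fold lower) and Grb10 at 30.2 against 78.1 CPM (log2 -1.13, 2.58-fold lower). Shares of thinned cells were 15.2% against 38.7% for Phlda2 and 15.2% against 44.0% for Grb10, and in both genes the intervals lay apart. Impact was at 56.9 against 99.2 CPM (log2 -0.71) and Cdkn1c at 9.36 against 10.5 CPM (log2 -0.08). Igf2r was the 1 gene that leaned the other way, at 13.3 against 4.45 CPM (2.99-fold, log2 0.69), with 37 and 44 counts in 8 and 4 cells. So 2 of the 5 genes were at least 2-fold lower, against 2.73% of recovered genes, and 0 higher, against 4.31%. Without the deepest 10% of cells Phlda2 (log2 -0.84) and Grb10 (log2 -0.83) missed the line and Impact (log2 -1.43) passed it. Of the megakaryocyte-platelet markers 6 of 11 were at least 2-fold lower in CD48-negative HSC2, with sums of 383 and 1126 CPM and none of the 11 at 0 in either library. Their part was not tested.

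**Figure D4:**
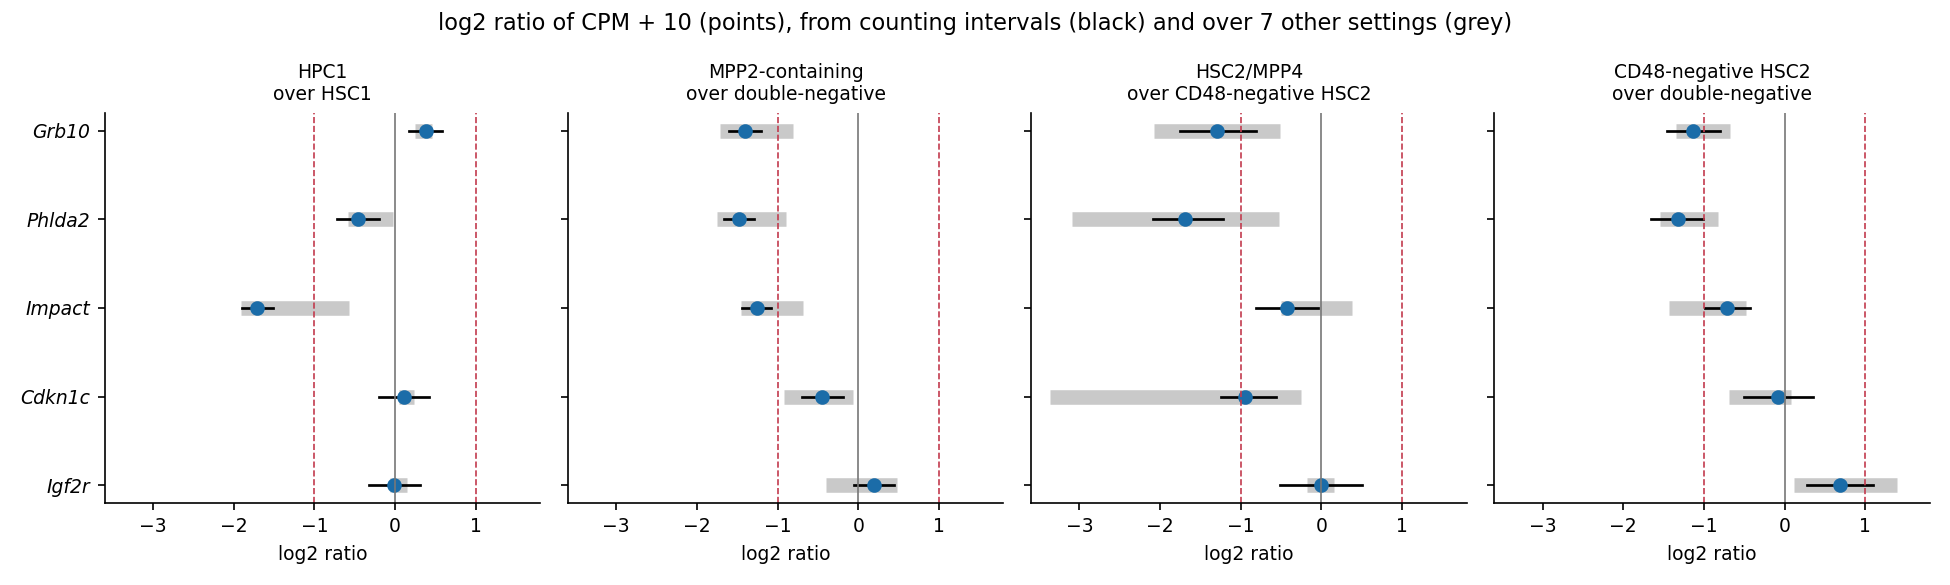
log2 ratio of CPM plus 10 (x axis) for the 5 genes (y axis) in the 4 comparisons; points are pooled ratios, black lines combine the ends of the Poisson intervals, grey bars span 7 other settings and dashed lines mark 2-fold. Below the lower line lay Impact in the first panel, Grb10, Phlda2 and Impact in the second, and Grb10 and Phlda2 in the other two, and the wide grey bar of Cdkn1c in HSC2/MPP4 comes with a count of 0.

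Cells with 2 or more of the 5 genes were a minority of every library after thinning. Among thinned cells 37.3% of double-negative, 32.5% of HSC1, 19.8% of HPC1, 18.8% of MPP2-containing, 12.1% of CD48-negative HSC2 and 4.94% of HSC2/MPP4 cells had 2 or more of them. No count of any was found in 13.3%, 25%, 32.1%, 40%, 47.0% and 56.8% of cells in the same order of libraries. No thinned cell had 4 or 5, while before thinning single cells of the double-negative library had counts of all 5. In the double-negative library, where Grb10 and Phlda2 were both frequent, 8 cells had both, and 24.2% of the 33 Grb10 cells had Phlda2 against 38.7% of all 75 cells. Spearman's rho between these 2 genes over the 76 cells was -0.27, and it was between -0.15 and -0.01 in the other 5 libraries. Over all pairs and libraries rho lay between -0.27 and 0.23. The points of each are cells of 1 library that share its preparation and differ in depth, the values are sparse, and these correlations are a description.

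Cd48 counts served as a view on the gates in the 3 libraries that mix CD48- and CD48+ populations. In HSC1, Cd48 was found in 12.5% of cells with Grb10 (3 of 24, interval 2.66 to 32.4%) and 35.7% of those without (20 of 56, 23.4 to 49.6%). The HSC1 values were 21.1% with and 31.1% without Phlda2, and 22.9% with and 33.3% without Impact. In HPC1, Cd48 was in 0 of 13 cells with Phlda2, which allows up to 23.1%, and in 19.1% of the 68 without (10.6 to 30.5%). For Grb10 the HPC1 values were 12.5% with and 17.5% without, and for Impact 20% and 14.3%. In the MPP2-containing library they were 33.3% with and 48.4% without Grb10, 52.4% and 42.4% for Phlda2, and 42.1% and 45.9% for Impact. The intervals of every pair overlapped. Overlap of separate intervals does not test a difference, so a split by Cd48 was neither read nor excluded. Procr was in 54.3% of HSC1 cells with Impact (19 of 35, 36.6 to 71.2%) and 35.6% without (16 of 45, 21.9 to 51.2%). In HPC1 cells it was in 52.0% with Impact (13 of 25, 31.3 to 72.2%) and 25% without (14 of 56, 14.4 to 38.4%). These intervals overlapped too, and the differences were not tested.

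Cell cycle genes were read within libraries in the same way. In the MPP2-containing library the summed level of 20 G2/M genes had a median of 507 CPM in the 21 thinned cells with Phlda2 and 2075 CPM in the 59 without, and rho between Phlda2 and this sum was -0.34 over 80 cells. Median depth of these cells was 120085 and 156618 counts, and the part of depth was not tested in this split or the next. For Grb10 the medians were 839 and 2018 CPM, with a rho of 0.04, and the median depths were 90572.5 counts in cells with it and 169091 in cells without. The rho of each gene with the G2/M sum in the other gene and library pairs that had counts lay between -0.22 and 0.20. The S-phase sum differed less for Phlda2, at 2970 CPM in cells with it and 2852 CPM in cells without. Cdkn1c, the cyclin-dependent kinase inhibitor, had too few cells for such a reading, with at most 7 thinned cells in a library.

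Among 74 genes listed by name as imprinted, 43 had a row and 39 had recovered counts. Whether the listed genes are imprinted in blood cells was not measured. Igf2, H19, Meg3 and Mest are no rows of the tables and were not analysed here. In the MPP2-containing against double-negative comparison 6 of the 39 were at least 2-fold lower: Grb10, Phlda2, Impact, Ndn (8.72 against 35.1 CPM, log2 -1.27), Gab1 (1.2 against 23.3 CPM) and Art5 (0.200 against 10.7 CPM). In the HSC2/MPP4 against CD48-negative HSC2 comparison 3 were lower, Grb10, Phlda2 and Ndn (5.10 against 40.7 CPM, log2 -1.75), and Ascl2 was the 1 higher gene, at 10.2 CPM against no count. Gab1, Art5 and Ascl2 were named after their values were seen, and each was in at most 14.7% of the cells of any library. In HPC1 against HSC1 only Impact passed, and in CD48-negative HSC2 against double-negative only Grb10 and Phlda2 did. Without the 5 genes, 3 of 34 listed genes were at least 2-fold lower in MPP2-containing over double-negative, against 2.04% of recovered genes. In HSC2/MPP4 over CD48-negative HSC2, 1 of these 34 was lower, against 3.31% of recovered genes, and 1 was higher, against 1.87%. The median log2 ratio of the 34 listed genes other than the 5 was 0.11, -0.01, -0.19 and -0.01 in the order of the comparisons above, beside medians of 0.00, -0.01, -0.04 and 0.00 over all recovered genes. Ndn encodes necdin, a paternally expressed growth suppressor, and its level was 52.1 CPM in HSC1 and 28.2 CPM in HPC1. Nap1l4 and Slc22a18, neighbours of Phlda2 at 10.4 and 2.21 kilobases, differed from it in profile. Nap1l4 lay between 128 and 162 CPM in all 6 libraries, and Slc22a18 was at 17.8 CPM in double-negative, 6.01 in HSC1, 14.1 in HPC1, 7.39 in MPP2-containing, 20.5 in CD48-negative HSC2 and 5.86 in HSC2/MPP4 cells. Dlk1 was at 6.37 CPM or less, Gnas at 16.6 CPM or less and Peg3 at 1.23 CPM or less.

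**Figure D5:**
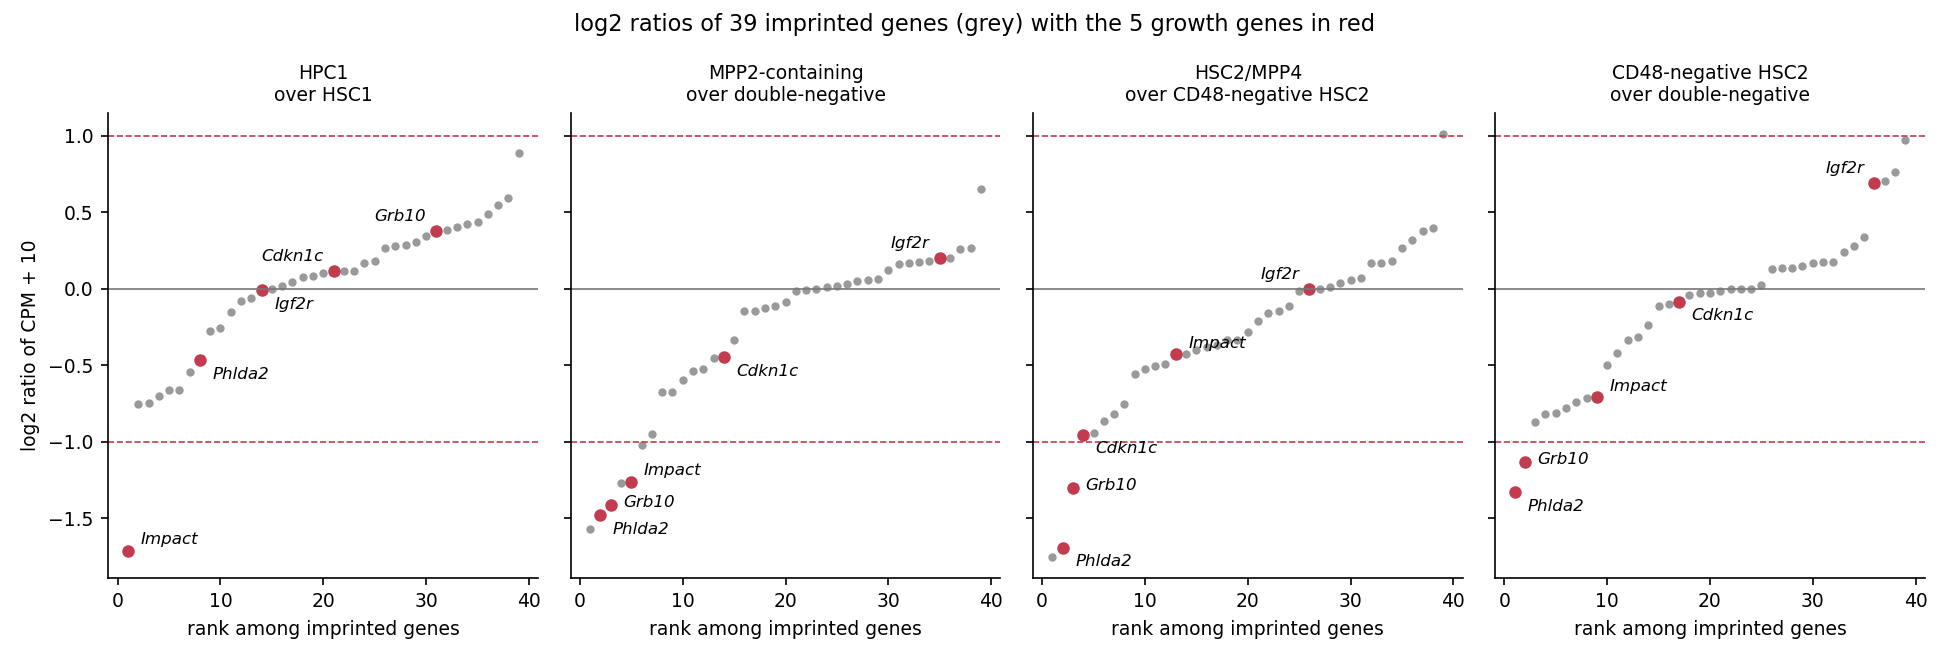
log2 ratio of CPM plus 10 (y axis) of 39 genes listed as imprinted, ranked from lowest to highest (x axis) in each of the 4 comparisons, with the 5 growth genes in red, the other 34 in grey and 2-fold as dashed lines. Impact was the lowest of the 39 in HPC1 over HSC1 (-1.71), and Phlda2 and Grb10 were the lowest 2 in CD48-negative HSC2 over double-negative (-1.33 and -1.13).

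The partners of the 5 genes were taken from lists of their pathways. Of 37 recovered genes of insulin and IGF signalling, 0, 2, 2 and 2 were at least 2-fold lower and 0, 1, 0 and 3 higher in the 4 comparisons as ordered above, Grb10 included, beside background shares of 1.87 to 4.31%. Insr, the insulin receptor that Grb10 binds, was at 9.99 CPM in the MPP2-containing and 52.1 CPM in the double-negative library (log2 -1.64), where Grb10 was likewise lower. Igf1r, the other receptor it binds, was at 78.1 and 93.9 CPM there (log2 -0.24), and ranged from 47.4 CPM in HSC2/MPP4 to 122 CPM in HSC1. Foxo3, a transcription factor that insulin signalling keeps out of the nucleus, was at 80.6 CPM in CD48-negative HSC2 against 29.1 in HSC2/MPP4 (log2 -1.21) and 32.7 in double-negative cells (log2 1.09). Socs3, Mtor, Pik3ca and Nagpa were named after their values were seen. Socs3 was higher in MPP2-containing (13.5 against 1.21 CPM) and, with Mtor, in CD48-negative HSC2 over double-negative cells, where Pik3ca was lower. M6pr, the second mannose 6-phosphate receptor beside Igf2r, stayed between 177 and 222 CPM in the 6 libraries. Of 21 recovered genes of mannose 6-phosphate sorting and its cargo, 0, 0, 1 and 0 were lower and 0, 0, 1 and 2 higher, beside the same background shares. Plaur, the urokinase receptor, was 104 CPM in CD48-negative HSC2 and 11.9 CPM in double-negative cells (log2 2.38), and Gga1 was the other gene higher there. Nagpa was the higher gene in HSC2/MPP4, while Ctsl, a lysosomal protease, was 33.4 CPM in HSC2/MPP4 and 80.6 CPM in CD48-negative HSC2 cells (log2 -1.06).

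Cdkn1a and Cdkn1b, the other members of the inhibitor family of Cdkn1c, had other profiles. Cdkn1a (p21) was at 7.39 CPM in double-negative, 10.3 in HSC1, 28.4 in HPC1, 58.1 in MPP2-containing, 63.7 in CD48-negative HSC2 and 132 in HSC2/MPP4 cells. It was thus highest in the library without a Cdkn1c count, with log2 ratios of 1.97 in MPP2-containing and 2.08 in CD48-negative HSC2 over double-negative cells. Cdkn1b (p27) lay between 25.6 and 46.9 CPM and passed 2-fold in no comparison. Of 16 recovered genes of the CDK inhibitor, cyclin and kinase list, 0 were at least 2-fold lower in any comparison, and 0, 1, 2 and 1 were higher. Background shares of all recovered genes were 1.87 to 4.31%. The 2 in HSC2/MPP4 over CD48-negative HSC2 were Cdk6 (229 against 107 CPM, log2 1.03), a G1 kinase, and Ccnd1 (57.9 against 20.2 CPM, log2 1.17), its cyclin partner. Ccnd1 was in at most 23.5% of cells of a library and was named after its value was seen.

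Eif2ak4, which encodes the GCN2 kinase that Impact restrains, was at 33.6 CPM in HSC1 and 34.4 CPM in HPC1 (log2 0.03), where Impact differed most. It was 45.5 CPM in MPP2-containing, 37.1 in double-negative, 19.6 in HSC2/MPP4 cells and 19.1 in those of CD48-negative HSC2, and it passed 2-fold in no comparison. Of 17 recovered genes of the GCN2 and integrated stress response list, Impact was the only one past 2-fold in HPC1 over HSC1 and in MPP2-containing over double-negative. Of all recovered genes 2.0% and 2.04% were at least 2-fold lower in these comparisons. In CD48-negative HSC2 over double-negative 3 of the list were higher and 1 lower, where 4.31% and 2.73% of recovered genes were. The higher genes were Atf4, the response's main transcription factor (355 against 168 CPM, log2 1.04), Ppp1r15a, which ends the response (393 against 180 CPM, log2 1.08), and Sesn2 (log2 1.34). The lower one was Asns, the asparagine synthetase gene (10.8 against 66.1 CPM, log2 -1.87). In HSC2/MPP4 over CD48-negative HSC2 Ppp1r15a was the 1 gene past 2-fold (log2 -1.33), where 3.31% of recovered genes were lower. Sesn2 and Asns were named after their values were seen. Phlda1 and Phlda3, relatives of Phlda2, stayed at or below 4.33 and 14.3 CPM. Phlda3 was highest in HSC2/MPP4 at 14.3 CPM, where Phlda2 was lowest, and had no count in the double-negative library, where Phlda2 was highest.

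Genes with the most similar profiles were found by the root mean square distance between log2 profiles over the 6 libraries, each centred on its own mean, among 4809 genes counted in at least 25% of the thinned cells of 1 library. Among the genes nearest to Grb10 were Mmrn1 (0.195), which encodes a platelet and endothelial protein, and P2rx1 (0.243), an ATP-gated channel of platelets. Mmrn1 was at 121 CPM in double-negative, 72.3 in HSC1, 114 in HPC1, 47.5 in MPP2-containing, 43.5 in CD48-negative HSC2 and 9.17 in HSC2/MPP4 cells. Among those nearest to Phlda2 were Smim6 (0.294) and Slc18a2 (0.365), a vesicular monoamine transporter. Impact was nearest to Helz (0.275), Ascc3 (0.293) and Tcp11l2 (0.303), and Helz was at 77.7 CPM in HSC1 and 30.9 CPM in HPC1. The profiles of Cdkn1c and Igf2r were flatter, with own spreads of 0.44 and 0.25 against 0.68 to 0.89 for the other 3, so their distances are smaller by scale. Cdkn1c was nearest to Cers4 (0.085), Bod1l (0.107) and Nfe2 (0.109), and Igf2r to Nono (0.063), Slc38a1 (0.065) and Dmac2 (0.078). Among the 5 themselves, Grb10 was closest to Cdkn1c (0.489) and to Phlda2 (0.523), and Igf2r lay farthest from Phlda2 (1.09) and Grb10 (1.07). The distances to Cdkn1c and Igf2r depend on the added 10 CPM.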

How the data were processed

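The deposited tables hold scores, per the values themselves: the authors' score of each gene has mean 0 and SD 1 over 497 cells and is capped at 10. TopHat, HTSeq and mm10 are named per the submitters' processing notes. The sources used here state no version, cell filter or doublet handling. After 6 lines without a name were dropped, lines of the 3 tables were joined by position, since 9901 uncapped genes then have a joint mean within 1.1e-10 of 0. Counts were recovered by undoing the regression on 4 cell covariates and the scaling, with 10000 as the assumed scale factor. Of 1983739 recovered values up to 50, 100.0000% were whole within 0.01, and 11961 of 13278 genes were recovered. Simulated counts for HPC1 over HSC1 (13051 genes, 11806 recovered) gave a median log2 ratio of 0.90 for genes changed 2-fold, the value drawn. The labels name no molecular identifiers, so counts may be reads; amplified reads are not independent molecules. A count of 0 allows 3 counts. Genes were annotated with GENCODE vM21 and RefSeq. Pooled levels used every cell, thinned values left out cells with fewer than 10000 counts, and cells were not clustered. Python 3.11.15, NumPy 2.4.6, SciPy 1.17.1 and pandas 2.3.3 were used. Besides the 5 genes, the text names the 3 nearest profiles of each, partners fixed by pathway, and list genes past 2-fold that were counted in 25% of thinned cells of 1 library; some genes these rules pick are not reported here. Members and lists were chosen with earlier results of these data known. The other settings tried are given in the closing section.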

Additional observations from a re-analysis of the deposited data

How the results depend on the processing

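Each of the 20 log2 ratios was recomputed under 7 other settings and as a difference of the deposited scores. The ratios past 2-fold kept their direction in all of them. No paired analysis was possible because each group has 1 library and no test was run. For the 7 other settings the share of all recovered genes past 2-fold was not computed, so no background stands beside the numbers below. The numbers of genes at least 2-fold lower changed as follows, and in the settings not named it was the same. With the mean of log2 per-cell levels it was 0 in HPC1 over HSC1 (1 with pooled levels), 0 in MPP2-containing over double-negative (3) and 0 in HSC2/MPP4 over CD48-negative HSC2 (2). With 50 CPM added in place of 10 it was 0 in the last 3 comparisons, where ratios shrink by construction. With the mean of per-cell CPM it was 1 in MPP2-containing over double-negative and 1 in CD48-negative HSC2 over double-negative (2 with pooled levels), and without the deepest 10% of cells it was 2 and 1 in these. In HSC2/MPP4 over CD48-negative HSC2 it was 3, with Cdkn1c added, by the mean of per-cell CPM (log2 -1.25), by CPM of recovered genes only (-1.36) and with 1 CPM added (-3.37). The number at least 2-fold higher became 1 (Igf2r) in CD48-negative HSC2 over double-negative with 1 CPM added. Causes other than that construction were not tested. Without thinning, 17 of 30 shares of cells left their interval, and at 5000 counts per cell 11 of 30 did. Cdkn1c and Igf2r rested on at most 168 and 99 counts in a library.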
